A study of Mus musculus with 12 samples.

Results

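Histone genes were taken as every identifier in both deposited tables whose name begins with Hist1h, Hist2h, Hist3h, Hist4h, H2af, H3f3 or H1f, which gave 90 of the 38720 genes listed. Of these, 70 carry a Hist name, as the clustered, replication-dependent genes do, and are called clustered genes here. The other 20 carry an H2af, H3f3 or H1f name and are called variant genes. The 70 include the pseudogenes Hist1h2aj, Hist1h2al and Hist3h2bb-ps. Hist1h2al (chromosome 13, 51202727 to 51203065) lies far from the other Hist1 genes, which end at 23934851. RNA was measured in retinas of C57/BL6 mouse pups at postnatal day 0 (P0). The mKO pups carried Math5-Cre and Ezh2 alleles with loxP sites (Math5Cre+;Ezh2f/f), and the controls were labelled wild type (WT). The study's methods name floxed littermates without Cre as its usual controls, but WT pups for the RNA sequencing. Its results refer to littermate controls for the same sequencing, so whether these pups carried loxP alleles is unclear. Retinal ganglion cells (RGCs) were bound with magnetic beads against CD90 (Thy-1), and the cells left over are called non-RGCs, with 3 libraries for each genotype and fraction. Math5 drives Cre in progenitors that give rise to RGCs, and the study describes RGCs that keep Ezh2 in these pups, so the mKO libraries can mix cells with and without the deletion. The labels do not say how many pups went into a library, and p-values measure only the spread between these libraries.

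Clustered histone genes sit in a few dense loci and are transcribed mainly in S phase, when new chromatin needs histones. Their mRNAs typically end in a stem-loop in place of a poly-A tail, and the stem-loop binding protein Slbp guides their processing and translation. Genes of replacement histones such as H3.3 lie mostly outside these loci, make polyadenylated mRNA and are transcribed throughout the cell cycle, so that post-mitotic neurons such as RGCs draw on them to renew chromatin. Histone H3 is also the substrate of Ezh2, which methylates its lysine 27. The libraries were made from poly-A selected RNA, so the values of clustered genes count only those transcripts that were captured in that selection.

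The stem-loop was searched in the annotated transcripts (GENCODE M21, GRCm38) as the 16 letters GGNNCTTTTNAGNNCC on the sense strand. It was found in 44 of the 70 clustered genes (62.9%) and in 1 of the 20 variant genes, H2afx, against 0.367% of the 20417 protein-coding genes. The 26 clustered genes without it had a median exon length of only 408 bases. A stem-loop past the annotated end of a transcript would not be found, so these 26 are not shown to lack one. The stem-loops of the clustered genes came in 6 forms, and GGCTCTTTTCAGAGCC alone accounted for 26 of the 44. The 6 printed below are those of the genes that the results turn on, with the stem-loop in capitals and 5 bases to either side in lower case. All 6 lie in the 3′ untranslated region, between 27 and 49 bases after the coding sequence, and each gene has 1 exon and 1 annotated transcript.
Hist3h2a (chr11:58955172-58955187, plus strand): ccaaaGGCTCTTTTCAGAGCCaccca
Hist3h2ba (chr11:58949349-58949364, plus strand): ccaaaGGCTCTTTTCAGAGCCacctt
Hist1h2ac (chr13:23683477-23683492, minus strand): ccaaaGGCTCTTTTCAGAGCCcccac
Hist1h1c (chr13:23739512-23739527, plus strand): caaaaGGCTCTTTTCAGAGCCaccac
Hist1h4i (chr13:22040966-22040981, minus strand): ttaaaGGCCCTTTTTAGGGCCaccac
H2afx (chr9:44335240-44335255, plus strand): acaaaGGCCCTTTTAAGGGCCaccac

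The coordinates are those of the capitals. In all of these genes the annotated transcript runs on past the stem-loop, by 169 bases in Hist3h2ba, 330 in Hist1h4i, 822 in H2afx, 840 in Hist1h1c, 1643 in Hist3h2a and 2010 in Hist1h2ac. Such a transcript ran on by more than 100 bases in 22 clustered genes, of which 19 (86.4%) reached a mean of 10 normalized reads in any group. The transcript ended within 100 bases of the stem-loop in another 22, of which 11 reached that level, and 26 had no stem-loop in an annotated transcript, of which 12 did. Per kilobase of exon the median of the highest group mean was close in the 3 sets, with 23.5, 21.3 and 21.4 normalized reads. A poly-A signal (AATAAA in the last 40 bases) was annotated in 10, 1 and 4 genes of these sets, and in 8 of the 10 protein-coding variant genes that reached the level.

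The promoters of the 2 classes also differed in their letters. Promoters of 300 bases (RefSeq, GRCm38.p6; 250 bases before and 50 after the start) were matched for 75 of the 90 genes and searched on both strands. CCAAT occurred in 52 of 61 clustered promoters (85.2%), in 9 of 14 variant promoters (64.3%) and in 37.9% of all 27025 promoters. TATAAA occurred in 35 of 61 clustered promoters (57.4%), in 1 of 14 variant promoters and in 14.2% of all promoters. The 150 bases before the start are shown for Hist3h2a and Hist3h2ba, neighbours at the Hist3 locus with opposite changes in RGCs, with CCAAT and TATAAA (or their reverse complements) in capitals.
Hist3h2a (chr11:58954535-58954684, plus strand): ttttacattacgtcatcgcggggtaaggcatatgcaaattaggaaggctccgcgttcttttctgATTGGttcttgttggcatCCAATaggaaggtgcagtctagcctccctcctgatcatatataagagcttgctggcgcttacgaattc
Hist3h2ba (chr11:58948761-58948910, plus strand): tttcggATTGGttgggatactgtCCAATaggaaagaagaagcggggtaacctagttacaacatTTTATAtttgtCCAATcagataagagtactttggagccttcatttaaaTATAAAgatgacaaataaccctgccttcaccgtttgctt

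These letters are a description of the window and no binding was measured. The Hist3h2a stretch holds CCAAT on either strand and no exact TATAAA, whereas the Hist3h2ba stretch holds both motifs. Only exact letters were searched, and the Hist3h2a stretch holds the similar TATATAAG, left in lower case. A lack of a TATA element in Hist3h2a is therefore not shown.

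In RGCs, 8 of the 11 variant genes tested were called lower in mKO, where 21.2% of all genes were. Of the 23 clustered genes tested, 3 were called in either direction, against 37.5% of all genes. These 23 had a median of 0.0213 normalized reads per exon base in RGCs, against 0.467 for the 11 variant genes. The part of read number in this contrast was not tested. The 8 variant genes called were lower in mKO RGCs by 1.32-fold to 2.02-fold. They were the linker histones H1fx and H1f0, the H2A variants H2afx, H2afy, H2afy2, H2afz and H2afj, and the H3 variant H3f3b. Of these, H2afy, H2afz and H3f3b passed with the trend with GC content removed, where 13.8% of all genes passed. With the trend with reads per base removed as well 0 passed, where 6.21% of all genes did. Of the clustered genes, Hist3h2a was higher and Hist3h2ba was lower, and Hist1h2ac was called higher on few reads after passing the filter through its mKO libraries alone. In non-RGCs, where 10.6% of all genes were called, Hist3h2a and Hist1h1a were higher and H2afx was lower. Only Hist3h2a was called there with the GC trend removed. Of 6 fits with a library left out, the call remained in 5 for Hist3h2a, 2 for Hist1h1a and 1 for H2afx. Because these are bulk libraries, fewer cells of a type and less RNA per cell cannot be told apart.

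The files give the mean over 3 libraries for each group, and the reads of each library were recovered from them (100% of genes with reads, each from exactly 1 combination of whole numbers). A normalized read is a read divided by the size factor of its library, and letters name the 3 libraries of a group by depth, A having the most reads and C the fewest. The libraries held between 7139633 and 13014004 reads on genes. The genotypes were compared with limma on log2(normalized reads + 1), for genes whose mean reached 10 in at least 1 genotype, and a gene is called where the adjusted p is under 0.05. This filter left 34 histone genes in RGCs (23 clustered, 11 variant) and 53 in non-RGCs (42 clustered, 11 variant). Of the clustered genes, 3 in RGCs (Hist1h1a, Hist1h2ac and Hist2h3c2) and 4 in non-RGCs (Hist1h2an, Hist1h2bn, Hist1h3d and Hist1h3i) passed through mKO alone. Another 3 in RGCs (Hist1h2ai, Hist1h2bj and Hist1h4h) and 3 in non-RGCs (Hist1h2ag, Hist1h3g and Hist3h2bb-ps) passed through WT alone. Ezh2 itself was not called in RGCs, with overlapping values of 1354, 1476 and 1443 normalized reads in mKO and 1189.9, 1206 and 1678 in WT libraries (log2 fold change 0.087, adjusted p = 0.637), and the deleted exons are only a part of the gene. The study itself described a change of Ezh2 in its RNA sequencing of mKO RGCs, and much reduced Ezh2 by qPCR and by Western blot of the protein. The 12 RGC marker genes summed to between 2619 and 2766 reads per 1000000 reads on genes (RPM) in WT RGCs and to between 513 and 539 in WT non-RGCs. In mKO they summed to between 2059 and 2130.3 in RGCs and to between 608 and 814 in non-RGCs, and of the 12, 10 were called lower in mKO RGCs (median log2 fold change -0.47) and 8 higher in mKO non-RGCs. The 6 blood markers were 24.5 to 30.4 RPM in mKO RGCs and 9.51 to 11.04 in WT RGCs, and 57.2 to 85.9 and 11.8 to 19.2 in non-RGCs, and all 5 that were tested rose in both fractions. Of the other marker lists in RGCs and non-RGCs, 5 and 1 of 10 progenitor genes, 5 and 5 of 8 photoreceptor genes, 4 and 2 of 6 amacrine genes and 2 and 1 of 5 astrocyte and Mueller genes tested were called lower, and no microglia or endothelial gene was called. Over all genes, 21.2% in RGCs and 6.43% in non-RGCs were called lower, and 16.3% and 4.18% were called higher. The part of these other cells in the histone values was not tested.

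Of all 16085 genes tested in RGCs, 37.5% were called, 16.3% as higher and 21.2% as lower in mKO. With the libraries scaled to total reads the median of all genes moved from -0.0024 to 0.12, and the share of higher among the called genes from 43.5% to 63.2%. Of the 11 variant genes tested, 8 were called lower and 0 higher, and their median log2 fold change was -0.47 against -0.0024 over all genes. In 10 of the 11 all mKO libraries were lower than all WT libraries, which held for 28.2% of all genes. Of the 23 clustered genes tested, 2 were called higher and 1 lower, with a median of 0.086 that lay between -0.20 and 0.40 when single libraries were left out. A difference between the classes was not tested, since genes of one library are not replicates.

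The linker histones of the variant class bind the DNA between nucleosomes. H1fx (chromosome 6, 87980421 to 87981637; 1 exon) had 433, 480.4 and 419.7 normalized reads in the mKO and 833, 794 and 1099 in the WT RGC libraries. The groups were far apart, and H1fx fell by 2.02-fold, the largest decrease among the called members, with a change of -1.02 ± 0.131 (log2 ± SE, adjusted p = 0.00158). With the GC trend removed it was at 0.019 (adjusted p = 0.931). H1f0 (chromosome 15, 79028450 to 79030504), the replacement H1 of cells that have stopped dividing, had 1314, 1443 and 1307 in mKO and 1686, 1769.5 and 2538 in WT RGCs. No library overlapped, but WT library C lay far above the other WT libraries. H1f0 had a change of -0.54 ± 0.151 (log2 ± SE, adjusted p = 0.0293) and kept its call in 3 of the 6 fits that each leave out a library. Per kilobase of exon H1f0 was the most abundant histone gene of the series, with a mean of 972 in WT RGCs and 1237 in WT non-RGCs.

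Among the H2A variants, H2afx (chromosome 9, 44334694 to 44336077) encodes the histone that is phosphorylated at DNA breaks and is the only variant gene with the stem-loop shown above. It had 681, 701 and 597 normalized reads in mKO and 1089, 1101 and 1581 in WT RGCs, without overlap, and fell by 1.88-fold. Its test gave a change of -0.91 ± 0.152 (log2 ± SE, adjusted p = 0.0041). H2afz (chromosome 3, 137864487 to 137866922), the variant placed at promoters and exchanged by the SRCAP and p400 complexes, had 421, 445 and 432 in mKO and 608, 594 and 806 in WT RGCs. The mKO libraries of H2afz lay within a narrow band below all WT libraries, and the test gave a change of -0.61 ± 0.123 (log2 ± SE, adjusted p = 0.00833). H2afv, which encodes another H2A.Z protein, had 639, 668 and 567 in mKO and 747, 785 and 1167 in WT RGCs. Its groups did not overlap either, but WT library C lay far above the other WT libraries, and it did not pass the test with a change of -0.50 ± 0.17 (log2 ± SE, adjusted p = 0.0556).

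The macroH2A genes H2afy (chromosome 13, 56073619 to 56136361) and H2afy2 (chromosome 10, 61738665 to 61784147) encode large H2A variants that are enriched on silent chromatin. H2afy had 1429, 1501 and 1519.8 normalized reads in mKO and 1923, 1943 and 2334 in WT RGCs. H2afy2 had 1229, 1287 and 1279 in mKO and 1659, 1665 and 1689.8 in WT RGCs, the tightest groups among the variant genes called. The log2 fold change was -0.47 for H2afy (adjusted p = 0.00523) and -0.40 for H2afy2 (SE 0.0487, adjusted p = 0.00126). H2afj (chromosome 6, 136808244 to 136810074), a mammalian H2A variant, had 565, 601 and 548 in mKO and 714, 714 and 843 in WT RGCs, with a change of -0.40 ± 0.0867 (log2 ± SE, adjusted p = 0.0111).

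H3f3a and H3f3b encode the same H3.3 protein, the H3 that is placed outside S phase. H3f3b (chromosome 11, 116021912 to 116027962) had 1593, 1675 and 1668 normalized reads in mKO and 2063, 2189.7 and 2423 in WT RGCs and a change of -0.43 ± 0.0698 (log2 ± SE, adjusted p = 0.00364). H3f3a (chromosome 1, 180800832 to 180813943) had 268, 280.3 and 279 in mKO and 289, 282 and 296 in WT RGCs. The groups of H3f3a lay next to each other without overlap, and the log2 fold change of -0.068 (SE 0.0828, adjusted p = 0.552) did not pass the test; scaled to total reads it was 0.055. Per kilobase, H3f3b stood at 748 and H3f3a at 82.5 normalized reads in WT RGCs, on the exon lengths of GENCODE M21, and 22.8% of the H3f3a exon bases overlap other genes. The pseudogene H3f3a-ps1 had 15.8 ± 3.9 (SD, n = 3) in mKO and 12.8 ± 2.27 in WT RGCs and shares 30.4% of its 75-base stretches with other genes.

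**Figure D1:**
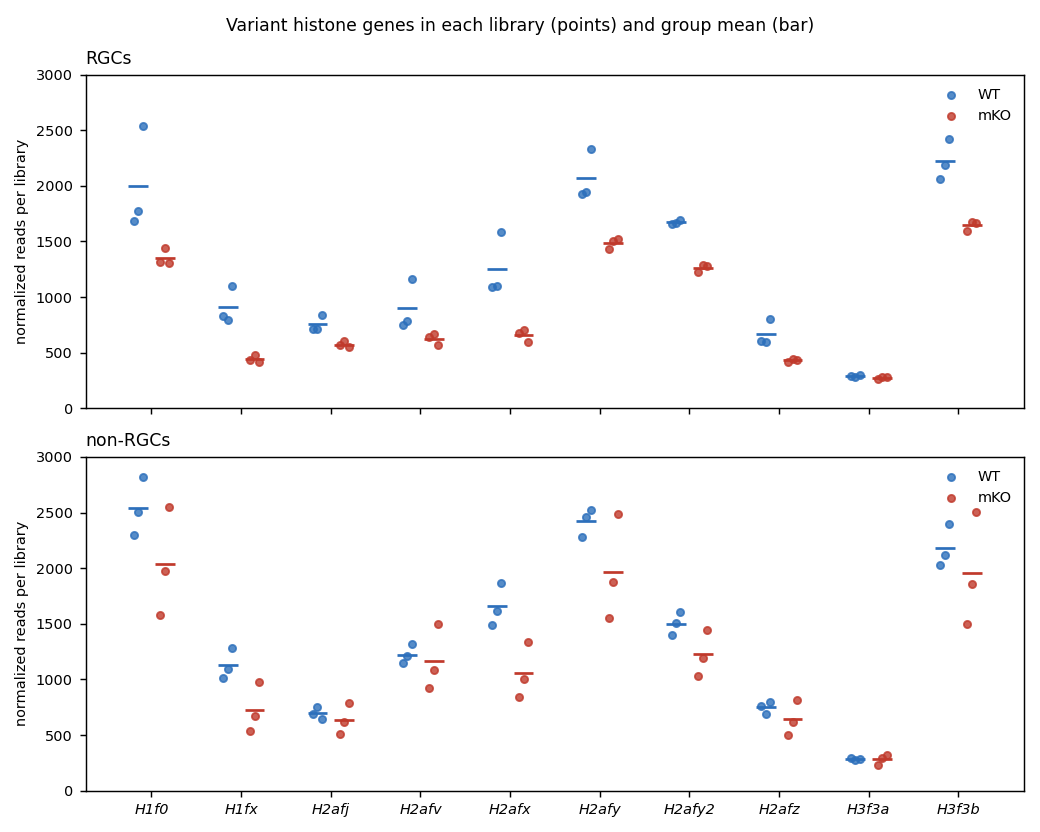
Normalized reads (vertical axis, linear from 0) of the 10 protein-coding variant histone genes whose mean reached 10, for RGCs above and non-RGCs below; each point is a library and each bar the mean of 3. In RGCs the red mKO points lie below the blue WT points for all 10 genes, narrowly for H3f3a, and in non-RGCs the mKO points are spread widely and most overlap the WT points.

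Base composition moved with genotype over all genes. Among RGC genes with a mean of 50 or more, the median log2 fold change was 0.31 at an exon GC content of 35 to 45%, 0.058 at 45 to 50%, -0.20 at 50 to 55%, -0.61 at 60 to 65% and -0.83 at 65 to 75%. Of the genes at 50 to 55%, where H1f0, H2afy, H2afz, H2afj and H2afy2 lie, 33.1% were called lower. H1fx has the highest GC content of the variant genes (71.3%) and H2afx the next of those tested (62.3%), and these 2 had the lowest log2 fold changes. At 45 to 50%, where 13.8% of genes were called lower, H3f3b (47.7%) was called with -0.43, H2afv (47.2%) was at -0.50 and H3f3a (45.2%) at -0.068. With the trend with GC content removed from each library, the variant median was -0.28, and H2afz (-0.52, adjusted p = 0.0317), H2afy (-0.31, adjusted p = 0.04) and H3f3b (-0.46, adjusted p = 0.00886) were still called, against 13.8% of all genes. H2afx was then at -0.28 (adjusted p = 0.241). With the trend with reads per base of exon removed as well, the variant median was -0.26, 6.21% of all genes were called and 0 of the 34 histone genes were. The authors removed duplicate reads, and the variant genes had a median of 0.467 normalized reads per exon base in RGCs against 0.102 over all genes. The parts of base composition and of duplicate removal in the decrease were not tested otherwise.

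**Figure D2:**
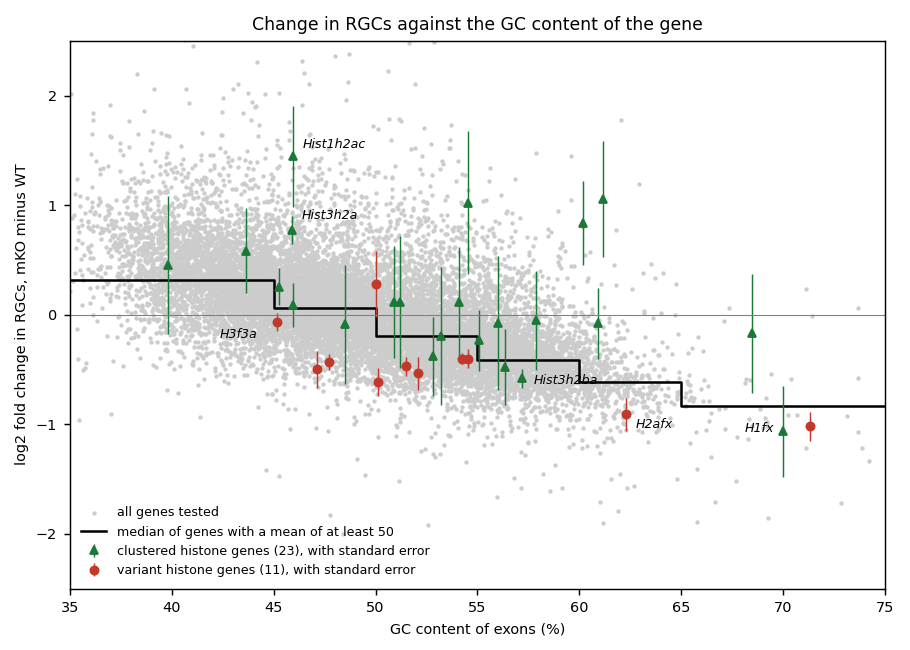
Log2 fold change in RGCs (mKO minus WT, vertical axis) against the GC content of the exons in percent for all genes tested (grey), with the 11 variant histone genes in red and the 23 clustered ones in green, bars giving the standard error, and the black line giving the median of genes with a mean of 50 or more in each GC bin. The black line falls from 0.31 to -0.83, and 10 of the 11 variant genes lie under 0, with H1fx at -1.02 and H2afx at -0.91 the lowest.

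Few clustered genes were well measured, and they clustered at the low end of the counts. Of the 70, 8 had no read in any of the 12 libraries (Hist1h2ao, Hist1h2ap, Hist1h2bq, Hist1h2br, Hist2h2aa1, Hist2h2aa2, Hist2h3b and Hist2h3c1). Between 87.6% and 100% of the 75-base stretches of these 8 occur in another gene as well, though some genes with as much shared sequence had reads, such as Hist1h2ai at 89.3%. The part of shared sequence in these zeros was not tested. A further 20 had reads but a mean under 10 in every group, with a median of 63.9% shared stretches, and the 42 that reached 10 had a median of 31.3%. These were 34 of 56 Hist1 genes, 4 of 10 Hist2 genes, all 3 Hist3 genes and Hist4h4. The 20 genes with few reads were Hist1h1t, Hist1h2aa, Hist1h2ad, Hist1h2af, Hist1h2ah, Hist1h2aj, Hist1h2al, Hist1h2ba, Hist1h2bf, Hist1h2bh, Hist1h2bl, Hist1h2bp, Hist1h3b, Hist1h3h, Hist1h4a, Hist1h4b, Hist1h4m, Hist1h4n, Hist2h2ab and Hist2h2bb. Of the variant genes, H2afb2 had no read, and H2af-ps, H2afb1, H2afb3, H1fnt, H1foo, H2afy3, H3f3a-ps2 and H3f3c stayed under a mean of 10. Among these are the testis histones Hist1h1t, Hist1h2ba and H1fnt and the oocyte linker histone H1foo.

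The Hist3 locus on chromosome 11 (58948920 to 58956830) held the clearest changes of the clustered class. Hist3h2a (chromosome 11, 58954685 to 58956830), an H2A gene, had 241, 262 and 252 normalized reads in mKO and 149, 166 and 127 in WT RGCs. No library overlapped, and it rose 1.71-fold, with a change of 0.77 ± 0.13 (log2 ± SE, adjusted p = 0.00419). Hist3h2ba (chromosome 11, 58948920 to 58949533), an H2B gene that starts the same locus 5151 bases upstream, had 261, 263 and 251 in mKO and 369, 373 and 421 in WT RGCs. It fell by 1.5-fold, also without overlap, with a change of -0.58 ± 0.0897 (log2 ± SE, adjusted p = 0.00305). The pseudogene Hist3h2bb-ps between them had 10.6 ± 3.3 (SD, n = 3) in mKO and 15.01 ± 4.2 in WT RGCs and was not called. Hist3h2ba was the most abundant clustered gene per kilobase of exon, with 632 in WT RGCs.

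Base composition separates these neighbours, at 45.9% GC for Hist3h2a and 57.2% for Hist3h2ba. With the GC trend removed Hist3h2a kept a log2 fold change of 0.66 (adjusted p = 0.0215) and Hist3h2ba was at -0.18 (adjusted p = 0.193), and with both trends removed they were at 0.53 (adjusted p = 0.0505) and -0.039. Of the Hist3h2a exon bases, 33.0% overlap Trim17 and the small annotated gene Gm44313, and 30.6% of its 75-base stretches occur elsewhere, so reads could have been divided between genes in counting.

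Hist1h2ac (chromosome 13, 23681467 to 23683948) was the only Hist1 gene called in RGCs, on few reads. It had 21, 13 and 10 reads in the mKO and 2, 4 and 6 in the WT RGC libraries, which is 18.3, 11.99 and 9.41 and 2.03, 4.34 and 7.002 normalized reads. The groups did not overlap, and the change of 1.45 ± 0.458 (log2 ± SE, adjusted p = 0.0441) passed the threshold narrowly. Only its mKO mean reached the filter, and with a mean of 10 asked of both genotypes it was not tested. It kept its call in 1 of 6 fits with a library left out, whereas Hist3h2a and Hist3h2ba kept theirs in 6 of 6.

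The other 15 Hist1 and the 4 Hist2 genes tested in RGCs were not called, and Hist4h4 did not reach the filter there. Hist2h2be, an H2B gene whose annotated transcript is long and polyadenylated, was the largest of these by reads, with 285, 371 and 321 normalized reads in mKO and 272, 223 and 329 in WT RGCs. Hist1h1c, which encodes a somatic linker histone, had 159.7, 173 and 125 in mKO and 138, 149 and 275 in WT RGCs, and the groups overlapped (log2 fold change -0.23 ± 0.278 SE, adjusted p = 0.54). Hist1h4i, an H4 gene, had 40.1, 44.3 and 35.8 in mKO and 42.6, 35.8 and 93.4 in WT RGCs (log2 fold change -0.38 ± 0.363 SE, adjusted p = 0.44). In each of these 3 genes WT library C was the highest WT library. The remaining 16 of the 20 Hist1 and Hist2 genes tested had group means between 6.04 and 43.7 normalized reads. All 4 Hist2 genes tested had log2 fold changes above 0, from 0.12 to 1.05, and in Hist2h3c2 (0.83, adjusted p = 0.129) all mKO libraries were higher than all WT libraries, as held for 24.8% of all genes. The opposite held for Hist1h2ai (-1.07, adjusted p = 0.0828), an H2A gene, and for 28.2% of all genes. Hist2h3c2 passed the filter through mKO alone and Hist1h2ai through WT alone, which favours these separations.

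WT RGC library C stood apart. It was the highest WT library for 21 of the 23 clustered genes and for 10 of the 11 variant genes. The 56 Hist1 genes summed to 81.0 RPM in it, against 33.7 and 32.2 in WT libraries A and B and 39.5, 61.3 and 42.0 in the mKO RGC libraries. The list of 21 S phase and cell cycle genes, which includes Pcna, the Mcm helicase genes and Mki67, summed to 2392 in it, against 1371 and 1476 in the other WT and 1596 to 1811 in the mKO RGC libraries, and the 10 progenitor markers to 1765 against 1208 and 1182. Markers of other non-RGC cells were also highest in it among the WT RGC libraries. These were photoreceptor (754 against 519 and 528), amacrine (534 against 438 and 470), astrocyte and Mueller (521 against 352 and 367) and endothelial markers (418 against 286 and 329). Microglia and blood markers were highest in it as well, and RGC markers were lowest (2619 against 2719 and 2766). Without this library, 5 clustered genes were called higher in mKO RGCs (Hist3h2a, Hist1h2ac, Hist1h1a, Hist2h2ac and Hist2h2be), against 23.2% of all genes, Hist3h2ba was lower, and the median of the clustered genes was 0.40. Of the 5, Hist1h1a and Hist1h2ac had passed the filter through mKO alone. Since library C held the highest WT values for most histone genes tested, leaving it out raises the log2 fold changes of those genes by construction. Without it 9 variant genes were called lower, against 27.7% of all genes, H2afv included (log2 fold change -0.30, adjusted p = 0.0134), and their median was -0.37. The part of proliferating or other non-RGC cells in these values was not tested.

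**Figure D3:**
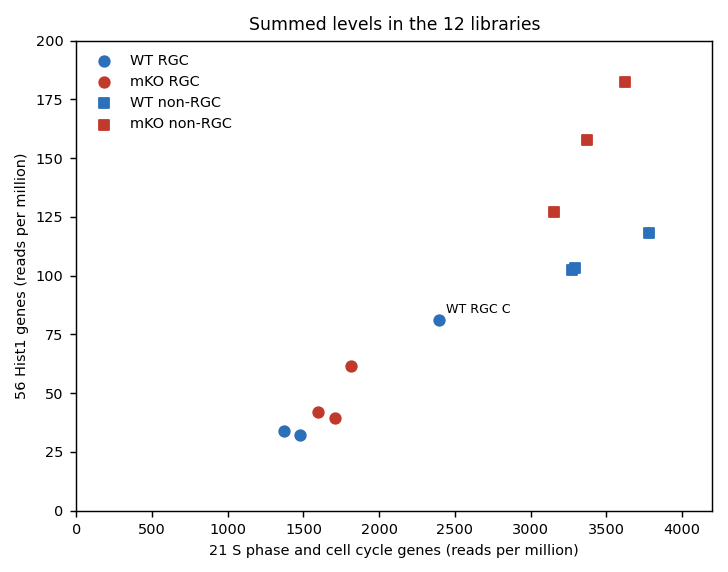
Summed RPM of the 56 Hist1 genes (vertical axis) against those of the 21 S phase and cell cycle genes (horizontal axis) in each of the 12 libraries, with circles for RGCs, squares for non-RGCs, blue for WT and red for mKO. WT RGC library C lies at 2392 and 81.0, between the other RGC libraries and the non-RGC libraries.

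In non-RGCs 10.6% of the 15326 genes tested were called, 4.18% as higher and 6.43% as lower. Scaling to total reads moved the median of all genes from -0.026 to 0.14 and the share of higher among the called genes from 39.4% to 74.8%, and centring on the median gave 54.7%. Of the 53 histone genes tested, 3 were called, namely Hist3h2a and Hist1h1a as higher and H2afx as lower. With all 12 libraries in one fit 7 were called, against 23.9% of all genes. The median log2 fold change was 0.39 over the 42 clustered genes, 33 of which were above 0, and -0.25 over the 11 variant genes, against -0.026 over all genes. In 11 of the 42 clustered genes the lowest mKO library exceeded the highest WT library, which held for 17.5% of all genes. Hist1h2bn and Hist1h3d, which are among the 11, passed the filter through mKO alone.

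Hist3h2a had 260.5, 284 and 347 normalized reads in mKO and 141, 144 and 103 in WT non-RGCs. As in RGCs the groups did not overlap, and it rose 2.3-fold with a change of 1.20 ± 0.208 (log2 ± SE, adjusted p = 0.0116). With the GC trend removed it kept 1.15 (adjusted p = 0.0421) and with both trends removed 1.11 (adjusted p = 0.0417), as the only histone gene called under either, where 1.43% and 1.81% of all genes were called. Hist3h2ba had 223, 299 and 412 in mKO and 328, 371 and 303 in WT non-RGCs, and these groups overlapped (log2 fold change -0.14 ± 0.226 SE, adjusted p = 0.706).

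Hist1h1a (chromosome 13, 23763666 to 23764406), a linker histone gene, had 33.9, 49.9 and 63.5 normalized reads in mKO and 19.8, 17.4 and 21.9 in WT non-RGCs. The lowest mKO library was above the highest WT library, and the gene rose 2.35-fold with a change of 1.23 ± 0.325 (log2 ± SE, adjusted p = 0.0412), a call that remained in 2 of 6 fits with a library left out (without mKO library A and without WT library C). In RGCs it had 8.73, 18.4 and 11.3 in mKO and 4.05, 2.17 and 16.3 in WT libraries, which overlapped (log2 fold change 1.02 ± 0.651 SE, adjusted p = 0.256). Hist1h2ac had 26.97, 27.8 and 45.2 in mKO and 13.5, 10.6 and 15.6 in WT non-RGCs and stayed just short of the threshold with a change of 1.24 ± 0.353 (log2 ± SE, adjusted p = 0.0527).

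H2afx had 841, 1004 and 1339 normalized reads in mKO and 1489.6, 1615 and 1864 in WT non-RGCs. The groups did not overlap, with a change of -0.66 ± 0.176 (log2 ± SE, adjusted p = 0.0422), and it was not called when the libraries were scaled to total reads or centred on the median, nor in 5 of 6 fits with a library left out (it passed without mKO library C). H1fx had 536, 668 and 979 in mKO and 1014, 1091 and 1284 in WT non-RGCs, also without overlap, and was not called (log2 fold change -0.67 ± 0.209 SE, adjusted p = 0.0679). The other variant genes had log2 fold changes between -0.34 (H1f0) and 0.27 (H3f3a-ps1), none of which passed. With the GC trend removed, H2afx was at -0.13 and H1fx at 0.19. The mKO non-RGC libraries were ordered the same way in all 11 variant genes, with A lowest and C highest. A is the deepest of them with 12828281 reads on genes, B has 10288195 and C 7139633. The part of depth in this order was not tested.

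The clustered genes of non-RGCs are given by histone type, as the mean ± SD of 3 libraries in normalized reads. Among the linker histones, Hist1h1c was by far the most abundant with 389 ± 50.5 in mKO and 338 ± 95.1 in WT (log2 fold change 0.24, adjusted p = 0.512). Hist1h1b had 34.9 ± 9.57 in mKO and 30.9 ± 15.9 in WT. Hist1h1d had 48.6 ± 10.7 in mKO and 30.2 ± 7.65 in WT, without overlap of the libraries, and Hist1h1e had 84.00 ± 12.6 in mKO and 90.5 ± 47.3 in WT. Apart from Hist1h1a, the clustered linker histone genes were not called. Of the clustered H2A genes, 7 of the 9 tested were above 0. Hist1h2ae had 42.4 ± 14.8 in mKO and 27.97 ± 8.86 in WT, Hist1h2ak 34.2 ± 6.24 in mKO and 28.2 ± 9.29 in WT and Hist1h2ai 24.7 ± 9.68 in mKO and 29.4 ± 8.55 in WT. Those with fewer reads were Hist1h2ab with 13.9 ± 4.19 in mKO and 12.9 ± 6.92 in WT, Hist1h2ag with 9.38 ± 1.49 in mKO and 13.3 ± 3.51 in WT, Hist1h2an with 10.02 ± 4.39 in mKO and 7.57 ± 4.45 in WT and Hist2h2ac with 19.1 ± 2.08 in mKO and 17.9 ± 6.74 in WT. Apart from Hist3h2a, these were not called.

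The clustered H2B genes had the highest median of the histone types, 0.73 on the log2 scale over 11 genes, with 9 above 0 and none called. In 4 of them the libraries of the genotypes did not overlap, with mKO higher, as held for 17.5% of all genes. Hist1h2bn, which is among the 4, passed the filter through its mKO libraries alone. Hist2h2be had 383 ± 27.2 in mKO and 364 ± 35.5 in WT and Hist1h2bc 95.5 ± 18.8 in mKO and 55.9 ± 11.04 in WT. Hist1h2be had 33.3 ± 2.83 in mKO and 14.8 ± 3.92 in WT (log2 fold change 1.14, adjusted p = 0.0544), Hist1h2bb 25.3 ± 2.8 in mKO and 12.8 ± 5.22 in WT and Hist1h2bn 19.1 ± 7.29 in mKO and 8.27 ± 2.33 in WT. Hist1h2bm had 30.5 ± 9.38 in mKO and 16.97 ± 10.9 in WT and Hist1h2bj 31.8 ± 8.34 in mKO and 25.6 ± 15.2 in WT. Those with fewer reads were Hist1h2bg with 18.7 ± 5.8 in mKO and 11.5 ± 4.52 in WT, Hist1h2bk with 17.1 ± 5.52 in mKO and 10.2 ± 4.61 in WT and Hist3h2bb-ps with 8.72 ± 2.68 in mKO and 13.1 ± 2.34 in WT. Hist1h2be and Hist1h1e overlap each other in the annotation and could share reads.

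Of the clustered H3 genes, 5 of 8 were above 0 with a median of 0.25. Hist1h3c had 36.8 ± 10.6 in mKO and 40.6 ± 23.6 in WT, Hist1h3e 43.6 ± 15.1 in mKO and 36.3 ± 5.55 in WT and Hist1h3a 26.3 ± 6.76 in mKO and 32.6 ± 16.9 in WT. Hist2h3c2 had 30.8, 37.4 and 43.8 in the mKO and 22.6, 14.5 and 1.04 in the WT libraries, without overlap and with WT library C near 0, and its change of 2.07 ± 0.774 (log2 ± SE, adjusted p = 0.11) did not pass. Hist1h3d had 11.8 ± 4.32 in mKO and 6.1 ± 1.2 in WT, Hist1h3f 12.5 ± 3.32 in mKO and 10.1 ± 3.78 in WT, Hist1h3g 7.07 ± 4.85 in mKO and 10.04 ± 4.6 in WT and Hist1h3i 12.8 ± 5.29 in mKO and 9.16 ± 3.98 in WT. Of the clustered H4 genes, 8 of 9 were above 0 with a median of 0.38, and none was called. Hist1h4i had 122 ± 28.1 in mKO and 107 ± 13.3 in WT (log2 fold change 0.17, adjusted p = 0.655), and Hist1h4d had 67.2 ± 11.4 in mKO and 44.3 ± 22.5 in WT. Hist1h4c had 24.1 ± 8.87 in mKO and 13.02 ± 2.44 in WT, Hist1h4h 17.7 ± 4.76 in mKO and 18.9 ± 7.43 in WT and Hist1h4f 15.1 ± 6.47 in mKO and 14.1 ± 6.75 in WT. Hist1h4k had 15.3 ± 2.09 in mKO and 11.2 ± 2.46 in WT, Hist1h4j 13.7 ± 5.26 in mKO and 10.1 ± 2.98 in WT, Hist2h4 16.9 ± 3.3 in mKO and 14.3 ± 3.13 in WT and Hist4h4 16.6 ± 2.997 in mKO and 11.1 ± 4.29 in WT.

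In the mKO non-RGC libraries, A was the lowest for 37 and C the highest for 27 of the 42 clustered genes, the order that the variant genes showed as well. Among the WT non-RGC libraries C was the highest for 28, and without it 5 clustered genes were called higher in mKO (Hist3h2a, Hist1h1a, Hist1h2ac, Hist1h2bb and Hist1h4d), against 4.76% of all genes, and the median of the clustered genes was 0.55. For those 28 genes, leaving out WT library C raises the log2 fold change by construction. Without mKO library B, limma called 0 of the 53 histone genes and 0.907% of all genes. Of the 53, 9 had an unadjusted p under 0.05, as had 3029 of all 15326 genes.

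**Figure D4:**
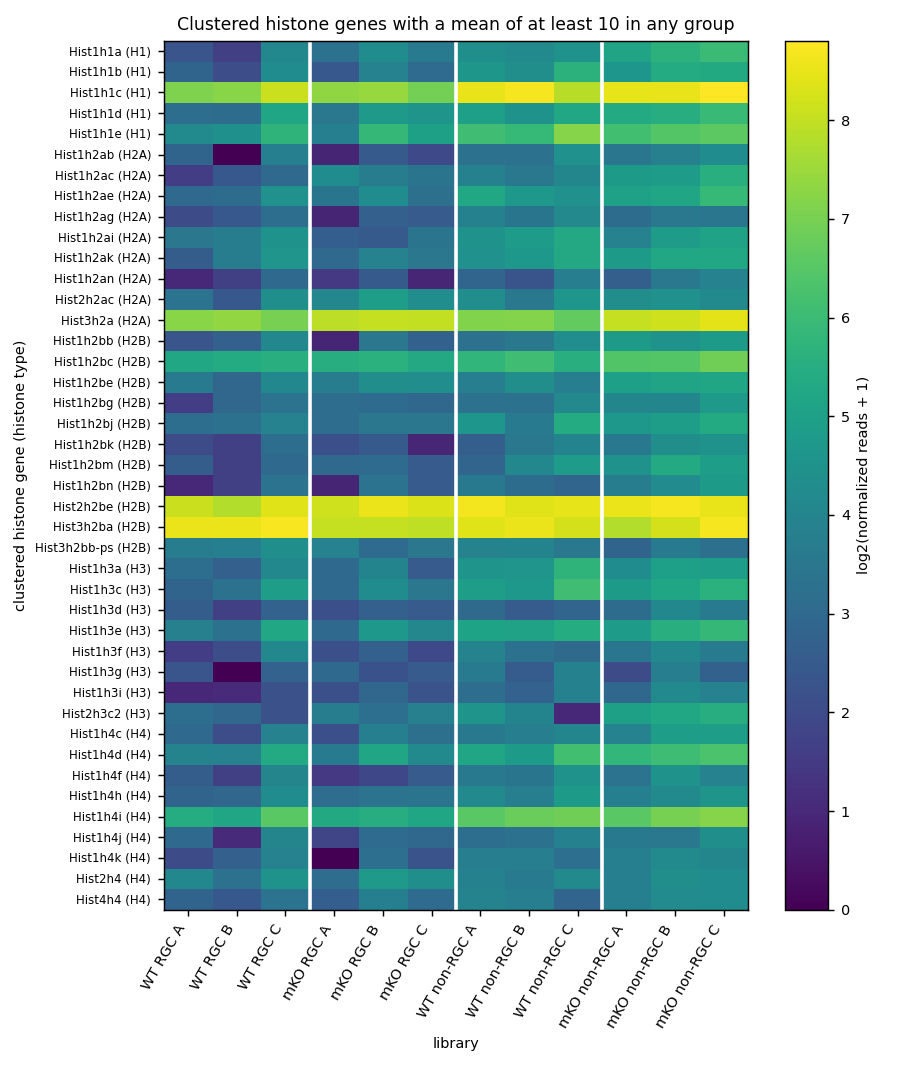
Log2(normalized reads + 1) of the 42 clustered histone genes whose mean reached 10 in any group (rows, by histone type) in the 12 libraries (columns, 4 groups divided by white lines); brighter is higher. Hist1h1c, Hist3h2a, Hist2h2be, Hist3h2ba and Hist1h4i are bright in all libraries, most Hist1 genes are darker in RGCs than in non-RGCs, and WT RGC library C is brighter than its neighbours.

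The question of whether the effect differed between the fractions was tested as the difference of the 2 log2 fold changes over all 12 libraries. None of the 53 histone genes tested was called by limma, and 0 had an unadjusted p under 0.05, against 16 called (0.0969%) and 1596 with an unadjusted p under 0.05 of 16517 genes. The median difference was -0.46 for the 42 clustered and -0.25 for the 11 variant genes. The difference was -0.35 (interval -0.93 to 0.24) for H1fx with a 95% interval in brackets, -0.25 (interval -0.79 to 0.29) for H2afx and -0.36 (interval -0.87 to 0.14) for H2afz. It was -0.42 (interval -0.96 to 0.11) for Hist3h2a, -0.44 (interval -1.005 to 0.12) for Hist3h2ba and 0.20 (interval -1.04 to 1.45) for Hist1h2ac. These intervals include 0 and are wide, so the fractions are not shown to act alike.

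Of the 34 genes tested in both fractions, 2 (H1fx and H2afx) had all mKO libraries below all WT libraries in both fractions, 3 (Hist3h2a, Hist1h2ac and Hist2h3c2) had them above in both, and 0 had them apart in opposite directions. These patterns held for 13.3%, 10.2% and 0.658% of the 14894 genes tested in both fractions. Hist1h2ac and Hist2h3c2 passed the RGC filter through their mKO libraries alone. The comparisons do not share libraries, but non-RGCs are the cells left over from the RGC capture. The fractions can thus come from the same pups, and a like change in both is not an independent replication.

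**Figure D5:**
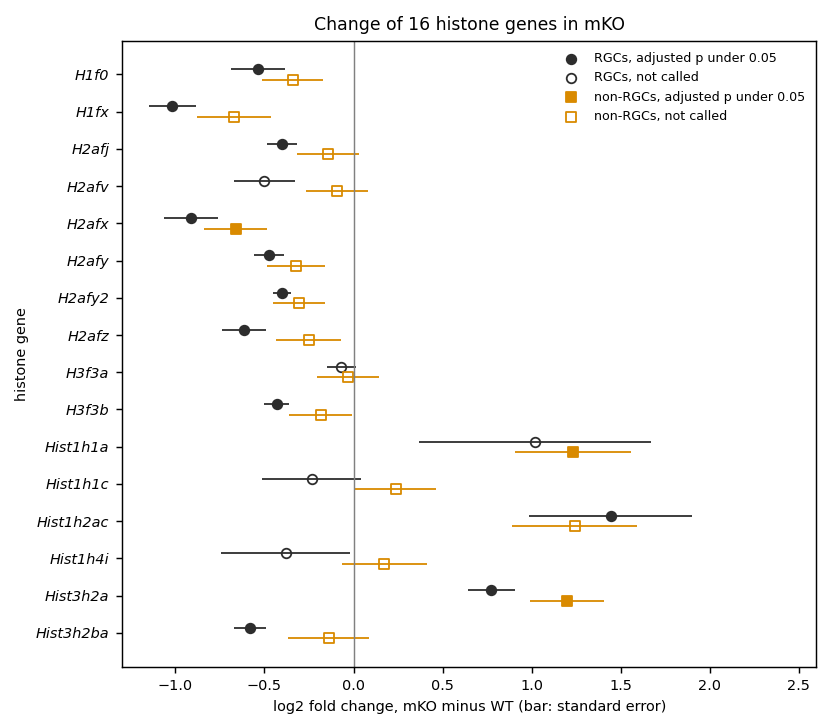
Log2 fold change (mKO minus WT, horizontal axis) of the 16 protein-coding histone genes given full statistics, in RGCs (circles) and non-RGCs (squares), filled where the adjusted p is under 0.05, with bars for the standard error. The variant genes lie at or left of 0 in both fractions, Hist3h2a, Hist1h1a and Hist1h2ac lie right of 0 in both, and Hist3h2ba lies left of 0.

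Levels in the 2 fractions were set side by side as RPM, without a test, since the tables were normalized separately. The Hist1 genes summed to 108 ± 8.92 (SD, n = 3) in WT non-RGCs and 49.0 ± 27.8 in WT RGCs, a ratio of 2.21, and to 156 ± 27.8 and 47.6 ± 11.9 in mKO, a ratio of 3.27. The lowest non-RGC library (102) was above the highest RGC library (81.0). The 14 Hist2, Hist3 and Hist4 genes were nearer to each other, with 80.7 ± 7.996 in WT non-RGCs and 69.8 ± 7.13 in WT RGCs, a ratio of 1.16, and a ratio of 1.39 in mKO. The variant genes summed to 1285 ± 60.5 in WT non-RGCs and 1021 ± 152 in WT RGCs, a ratio of 1.26, and a ratio of 1.54 in mKO. The S phase and cell cycle list summed to between 3152 and 3779 in non-RGCs and to between 1371 and 2392 in RGCs. By reads, the variant genes took a larger part of each library than the clustered genes in all 12 libraries.

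Genes that act on histone mRNA and histone proteins were looked up as 3 lists. Of 15 genes for 3′ end formation and turnover of histone mRNA, 4 were called higher and 3 lower in mKO RGCs, where 16.3% and 21.2% of all genes were, with a median log2 fold change of -0.034. Npat, the activator of clustered histone genes at the histone locus body, rose from a mean of 483 to 861 normalized reads (log2 fold change 0.83 ± 0.0822 SE, adjusted p = 0.00078). Casp8ap2 (FLASH), a component of the same body, rose from 733 to 1220.2 (0.74 ± 0.0850 SE, adjusted p = 0.00108). With GC and reads per base trends removed they kept 0.39 (adjusted p = 0.0356) and 0.41 (adjusted p = 0.0430), and both were called in 6 of 6 fits with a library left out. Sympk, a scaffold of the cleavage complex, fell (-0.56 ± 0.0869 SE, adjusted p = 0.00317). In non-RGCs 2 of the 15 were called, Upf1 (-0.65, adjusted p = 0.00962) and Sympk (-0.48, adjusted p = 0.0276), both lower, where 10.6% of all genes were called.

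Of 23 chaperone, exchange and acetylation genes, 1 was called higher and 8 lower in mKO RGCs, with a median of -0.16, and the 9 called are a share near the 37.5% of all genes. Hjurp, the chaperone of the centromeric H3, fell from a mean of 2955 to 2173 normalized reads (-0.44, adjusted p = 0.00289), Nap1l4, an H2A-H2B chaperone, from 2319.6 to 1757 (-0.40, adjusted p = 0.00145) and Vps72, which binds H2A.Z in the exchange complexes, from 1072 to 809 (-0.40, adjusted p = 0.0192). With both trends removed Hjurp was still called (-0.28, adjusted p = 0.0492), and Nap1l4 was at -0.073 and Vps72 at -0.27. In non-RGCs 2 of the 23 were called, Hjurp (-0.61, adjusted p = 0.0117) and Cabin1 of the H3.3 chaperone complex (-0.59, adjusted p = 0.0322), both lower, where 10.6% of all genes were called. Of the 21 S phase and cell cycle genes, 2 were called higher and 1 lower in mKO RGCs, where 16.3% and 21.2% of all genes were. Ccne2 (0.87, adjusted p = 0.0173) and Pola1 (0.62, adjusted p = 0.0323) were higher and Pcna (-0.44, adjusted p = 0.0462) was lower, with a median of -0.13 over the list. In non-RGCs Ccne2 (0.76, adjusted p = 0.0406) was higher and Mcm2 (-0.47, adjusted p = 0.0443) lower, with a median of -0.18. They were the only genes of this list called there, where 4.18% of all genes were called higher and 6.43% lower. These values are log2 fold changes. Of 6 fits with a library left out, the RGC calls remained in 6 for Hjurp and Nap1l4, 3 for Vps72 and Ccne2, 2 for Pcna and 1 for Pola1, and the non-RGC calls in 5 for Hjurp and Upf1, 2 for Ccne2 and Sympk and 1 for Cabin1 and Mcm2.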

How the data were processed

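RNA from RGCs and non-RGCs of P0 retinas was sequenced in 12 poly-A selected, single-end libraries. According to the submitters' notes and the study's methods, the authors aligned reads to mm10 with STAR 2.3.1z4, removed duplicates, counted reads per gene with featureCounts and normalized them with DESeq, within each fraction. The 2 deposited tables hold a normalized signal per gene and group, which is the mean over 3 libraries of reads divided by size factors. They also hold the authors' own comparisons (fold change, its log2, p and adjusted p), which were not used. Unused columns of samples numbered 0.

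The reads of each library were recovered from the 15 digits of these means, which carry no replicate number. Values were tested as log2(value + 1) with limma 3.58.1 (R 4.3.3, mean-variance trend, Benjamini-Hochberg over all genes tested) in place of a count model, for mKO against WT in each fraction and for the difference of both. Genes needed a mean of at least 10 in either genotype. Alternatives changed the pseudocount to 0.5, the filter, the scaling, the variance model and the libraries. Others removed each library's trend with exon GC content (lowess, span 0.3) or with GC content and reads per base (300 neighbours), from genes with a mean of at least 50. Scripts ran in Python 3.11.15 (numpy 2.4.6, pandas 2.3.3) and were tested on simulated data. GENCODE M21 gave exon lengths, which can differ from those the authors used.

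The members and lists were chosen with earlier results of these data known. Every variant gene, and every clustered gene with a mean of at least 10 in any group, was named; full statistics went to genes called in a fraction and to the 3 most abundant per length that were not called, and 3 genes at most were named per related list and fraction. Genes described beyond this were chosen after their values were seen.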

Additional observations from a re-analysis of the deposited data

How the results depend on the processing

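No paired analysis was possible because the libraries recovered from the group means carry no replicate number. In RGCs 11 histone genes were called, and 4 were with the GC trend removed and 0 with GC and reads per base trends removed (9 had an unadjusted p under 0.05), when the variant median of -0.47 became -0.28 and -0.26. In non-RGCs 3 were called (10.6% of all genes), 1 with the GC trend removed (1.43%), 1 with both trends removed (1.81%) and 7 with all 12 libraries in one fit (23.9%). The clustered median of 0.39 became 0.68 with the GC trend removed. Leaving out single libraries gave 8 to 15 called histone genes in RGCs and 0 to 5 in non-RGCs. In RGCs the 8 came without mKO library C, with 1435 genes higher and 2341 lower of all 16085. The 15 came without WT library C, with 3737 higher and 4463 lower. In non-RGCs 0 were called without mKO library B (0.907% of all genes). Without WT library A or B 1 was called, with 340 and 162 genes higher and 472 and 218 lower of all 15326. Without WT library C 5 were called, with 730 genes higher and 891 lower. The difference between fractions gave 0 calls under all alternatives run.

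Some log2 fold changes turned. With the GC trend removed H1fx was 0.019 in RGCs and 0.19 in non-RGCs, Hist1h1c 0.086 in RGCs, and in non-RGCs H2afj was 0.074 and Hist3h2ba 0.18. With both trends removed H2afy2 was 0.051 in RGCs and 0.0018 in non-RGCs, Hist1h1c 0.036 in RGCs, and in non-RGCs H2afj was 0.16, H2afv 0.058, Hist3h2ba 0.27 and Hist2h2be -0.046. Scaled to total reads H3f3a was 0.055 in RGCs and 0.14 in non-RGCs, and in non-RGCs H2afj was 0.027, H2afv 0.077 and Hist3h2ba 0.031; centred on the median H3f3a was 0.040 there. Leaving out single libraries gave -0.42 to 0.079 for Hist1h1c and -0.65 to 0.030 for Hist1h4i in RGCs (the high ends without WT library C). In non-RGCs it gave -0.31 to 0.0079 for H2afj, -0.29 to 0.063 for H2afv, -0.12 to 0.10 for H3f3a and -0.36 to 0.078 for Hist3h2ba (the high ends without mKO library A), and -0.013 to 0.41 for Hist1h1c and -0.16 to 0.39 for Hist2h2ac (the low ends without WT libraries C and B). The causes were not tested. Of the values of named genes under the alternatives, 632 kept direction and side of the threshold, 122 no longer passed, 13 newly passed and 26 turned. Low counts limit most clustered genes: Hist1h2ac had 2 to 21 reads in an RGC library.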
